A study of Mus musculus with 31 samples.

Results

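The Rab GTPases of Ba/F3 cells were followed here as a family. Members were all gene symbols of both deposited tables made of Rab, a number and at most 1 letter, which gave 58 members of 41255 symbols and left out Rab effectors, regulators and Rab-like genes. Rab37 was chosen by its measured values, a larger R98S against WT difference in polysomal RNA than in total mRNA, so its values for that comparison are given as a description with no test. Ba/F3 is a mouse lymphoid line that grows in the presence of interleukin 3. In every clone an shRNA had lowered mouse Rpl10, which encodes a large-subunit ribosomal protein, and a retrovirus supplied human RPL10 as the WT or the R98S (arginine to serine) form. The R98S clones are numbered 11, 13 and 35 and the WT clones 28, 29 and 36. Each clone was grown from a single cell, so the libraries of a clone share its history. The main fits took each library as a unit, with no term for clone. Their p-values thus treat libraries of the same clone as independent, although the genotypes are represented by a few clones only. Fits on clone means are given beside the calls. Total mRNA libraries numbered 9 for R98S and 8 for WT, after the study had left out a WT clone 36 library that grouped with R98S. Polysomal RNA, taken from gradient fractions in which transcripts carried at least 2 ribosomes, was sequenced in 8 R98S and 6 WT libraries. By label, these 14 cultures each had a total mRNA library.

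Rab proteins are small GTPases that switch between a GTP-bound form on membranes and a GDP-bound form that is drawn off into the cytosol. Exchange factors load them with GTP, TBC-domain proteins speed up hydrolysis, prenyl groups anchor them in the membrane, and the GTP-bound form recruits effectors that move, tether or fuse vesicles. Different members mark different compartments, and blood cells use several of them in granule and lysosome traffic.

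The libraries held 8831180 to 22059792 reads, of which the 58 members took between 0.335% and 0.479%. Normalized read counts of mouse Rpl10, lowered in all clones, were 901 to 2984 in R98S and 620 to 5715 in WT total mRNA, where reads of the human transcript may also align. As a check of the clone labels, each library was compared with the mean of the other libraries of each clone of its genotype over 200 genes that vary most within the genotype. Of 31 libraries 27 were closest to their own clone. The polysomal library labelled R98S 35 number 3 correlated at -0.23 with the other clone 35 libraries and at 0.67 with clone 11. The total mRNA library labelled WT 28 number 1 correlated at -0.64 with its own clone and at 0.63 with clone 36. The total mRNA libraries labelled WT 29 number 1 and R98S 13 number 2 had correlations of -0.22 and -0.16 with their own clones and were not close to another. The total mRNA libraries R98S 13 number 2 and R98S 35 number 2 also stood apart from the other R98S libraries in F13a1, a gene high in WT, with 5306 and 8948 normalized counts against at most 1252 in the other R98S and at least 5067 in the WT total mRNA libraries. In the polysomal libraries of the same 2 labels F13a1 was at 4.05 and 287. For the label WT 29 number 1, Oaf was at 3031 in total mRNA and 0.77 in polysomal RNA. For R98S 35 number 3, Il18 was at 0 in total mRNA and 309 in polysomal RNA. The pairing of the fractions into cultures thus rests on labels, which these genes do not bear out for the libraries named here. Labels were kept as given, and calls that changed when the libraries named above were left out are named beside the results. Of 13 genes of pro-B and interleukin 3 dependent cells, 6 had a mean of at least 10, among them Il3ra and Cd79a, while Vpreb1 and Pax5 were at or near 0.

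Of the 58 members, 43 had a mean normalized count of at least 10 in total mRNA, and polysomal RNA had 44 such members. Only these were tested. The others averaged at most 6.82 in total mRNA and 1.05 in polysomal RNA. Rab42 and Rab9b were listed at 0 in every library of both fractions and Rab39b in every polysomal library. Neuronal members such as Rab3b and Rab3c, and Rab23 of the cilium, were among the untested.

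Levels were compared between genes as normalized read count per kb of exon, as a mean over all libraries of a fraction. Rab44, a large Rab with a calcium-binding region that is known from mast cells and osteoclasts, had the highest level in total mRNA at 2238 per kb. Next came Rab1b at 1441, Rab7 at 1433 and Rab5c at 1374 per kb, which act at the ER to Golgi step, the late endosome and the early endosome. In R98S the Rab44 level was 2469 ± 307 per kb (SD, n = 9), against 1463 ± 191 for Rab7, while in WT the SD of Rab44 was 654 around 1979 and spanned the gap to Rab7 at 1399 ± 196 (n = 8). In polysomal RNA the levels in R98S were 1736 ± 301 for Rab7, 1531 ± 178 for Rab5c and 1449 ± 273 for Rab1b (SD, n = 8). In WT they were 1713 ± 431 for Rab1b, 1622 ± 367 for Rab7 and 1535 ± 418 for Rab5c (n = 6). The order thus differed between the genotypes, and neighbours in it were closer than the larger of their SDs. Rab44 was at 487 per kb in polysomal RNA over all libraries and ranked 12 of 58. The most abundant tested members of the other groups were Rab35 of the recycling endosome, at 477 per kb in total mRNA, Rab28 of the cilium at 109 and Rab40c, which carries a SOCS box, at 87.2. Rab37 stood at 293 per kb in total mRNA, rank 19 over all libraries. By genotype it was 345 ± 72.9 per kb in R98S and 234 ± 79.2 in WT total mRNA, and 280.4 ± 38.7 and 81.0 ± 23.9 in polysomal RNA (SD).

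**Figure D1:**
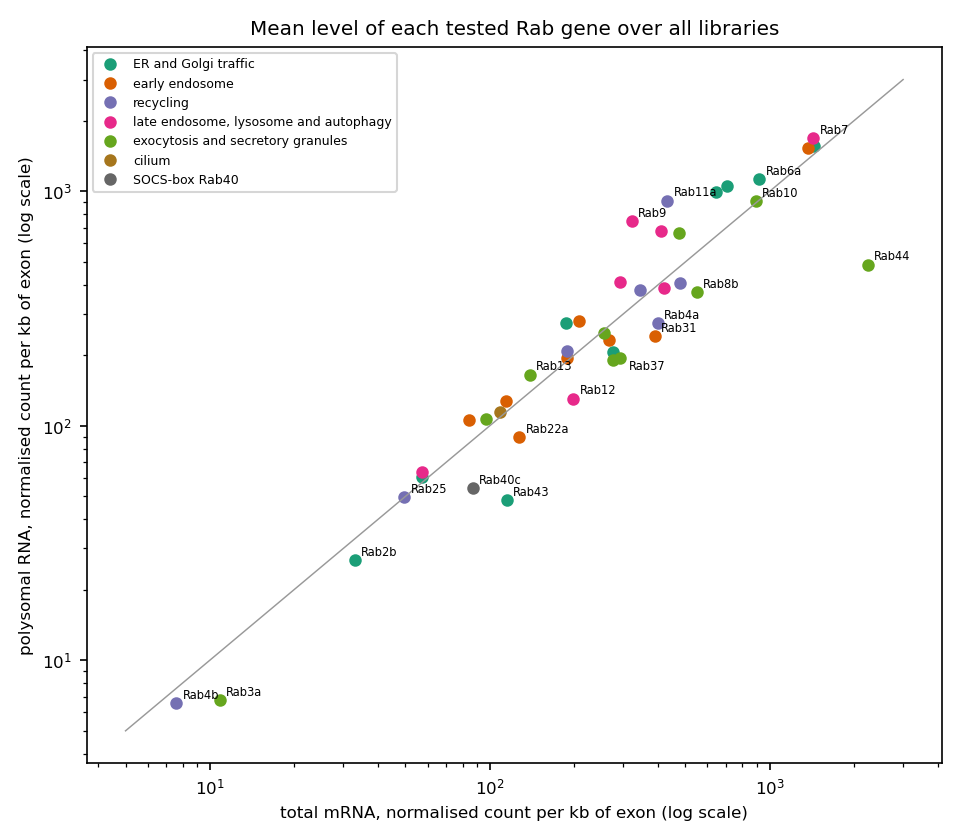
Mean level of each Rab gene tested in both fractions, as normalized read count per kb of exon in total mRNA (x axis, log scale) and in polysomal RNA (y axis, log scale), coloured by role group, with a line of equal values. Rab44 is the member farthest below the line, at 2238 per kb in total mRNA and 487 per kb in polysomal RNA, and the tables were normalized separately, so only the place of a gene relative to the others can be read.

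Rab37 is a Rab of secretory granules. It was higher in R98S in both fractions, and the difference was larger in polysomal RNA. Its normalized counts in total mRNA were 1437 to 2734 with a median of 1772 in the 9 R98S libraries and 643 to 1789 with a median of 1257 in the 8 WT libraries. The genotypes overlapped, with 4 of 9 R98S libraries above every WT library. The means were 1838 ± 388 in R98S and 1247 ± 422 in WT (SD), a difference of 0.62 on the log2 scale. Polysomal counts were 1137 to 1759 with a median of 1523 in the 8 R98S libraries and 212 to 537 with a median of 474 in the 6 WT libraries. All 8 R98S libraries lay above the highest WT library, a value the choice of the gene used. Of all genes tested 4.96% had polysomal libraries that did not overlap. The means of 1494 ± 206 and 432 ± 128 gave a log2 difference of 1.84. By clone the polysomal means were 1645, 1394 and 1494 in R98S clones 11, 13 and 35, and 526, 443 and 212 in WT clones 28, 29 and 36, where WT clone 36 had 1 polysomal library. The clone means of the genotypes did not overlap, as in 27.2% of all genes tested.

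The polysomal to total ratio of a culture, the log2 polysomal count minus the log2 total count, was -0.71 to 0.01 with a median of -0.23 in the 8 R98S cultures and -2.16 to -1.15 with a median of -1.48 in the 6 WT cultures. The cultures did not overlap, where 0.169% of all genes tested showed no overlap. The ratio averaged -0.29 ± 0.22 in R98S and -1.56 ± 0.37 in WT (SD), a difference of 1.28, and the means of the 3 clones of a genotype lay between -0.48 and -0.22 in R98S and between -1.60 and -1.55 in WT. Within replicate numbers 1, 2 and 3 the ratio difference was 1.22, 0.95 and 1.42. Among the 43 Rab genes ranked from the highest ratio to the lowest within a culture, Rab37 was at rank 21 to 38 in the R98S cultures and at rank 40 to 42 in the WT cultures. The Rab37 difference exceeded the median difference of the other 42 members by 1.26. Since these values chose the gene, they describe it and support nothing further.

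**Figure D2:**
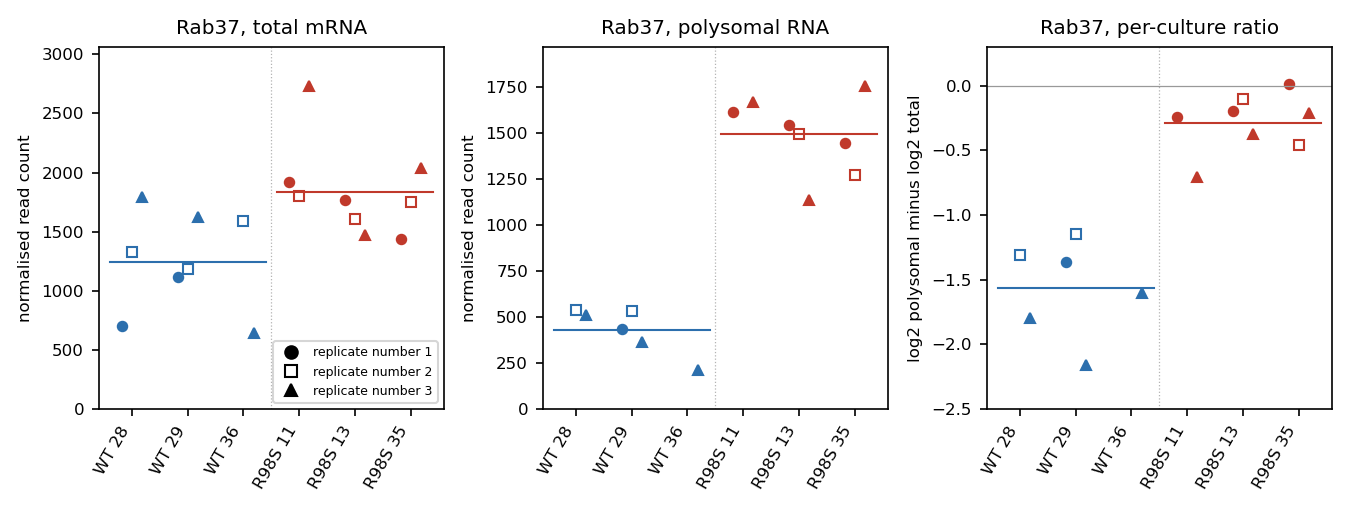
Rab37 in each library by clone, as normalized read count in the total and polysomal tables and as the log2 polysomal minus log2 total value of a culture, with marker shape for the replicate number and a line at each genotype mean. The genotypes overlap in total mRNA, whereas the 8 R98S polysomal libraries sit between 1137 and 1759 and the 6 WT libraries between 212 and 537.

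Rab37 lies on the plus strand at chr11:115091431-115162236 (GRCm38) with 5330 bases of exon in the GENCODE annotation, none of them shared with another gene. Its principal annotated coding transcript has a leader of 42 bases before the start codon, with no upstream ATG, and among the 43 Rab genes tested in total mRNA only Rab1, with 28 bases, has a shorter leader. Rab44 has the longest, 1226 bases with 11 ATG. The median leader is 225 bases over these 43 members, 178 bases over 9974 coding genes tested and 174 bases over 20243 coding genes. The ratios of Rab4a and Rab25 were called with the replicate number fitted as a block. Of the abundant Rab7, Rab44 and Rab11a, Rab44 had the lowest ratio in level. Rab11a had among the highest mean ratios, through the cultures of replicate number 3. Because the ratio is a readout of ribosome loading, the bases around the start codons are shown for Rab37, Rab4a, Rab25, Rab44, Rab7 and Rab11a. They are written 5′ to 3′ from the GRCm38 genome with the GENCODE start codon, and capitals mark the base at -3, the start codon and the base at +4:
Rab37 (chr11:115154199-115154201): ctgtccgggGacATGAct
Rab4a (chr8:123806136-123806138): tgtggcggcAgaATGGcg
Rab25 (chr3:88548073-88548075): tgctgagccAagATGGgg
Rab44 (chr17:29136282-29136284): gactcccggGgcATGGcc
Rab7 (chr6:88013688-88013690): tgcgcttcaAggATGAcc
Rab11a (chr9:64737621-64737623): ctcggccgcGccATGGgc

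All 6 have a purine at -3, as do 88.4% of the 43 tested members, 86.6% of the coding genes tested in total mRNA and 84.5% of all coding genes. A G at +4 is present in 4 of the 6, in 62.8% of the tested members, in 54.2% of the coding genes tested and in 49.6% of all coding genes, and Rab37 and Rab7 have an A there. An ATG occurs in the leader of 41.9% of the tested members, of 52.1% of the coding genes tested and of 55.1% of all. These are descriptions of the annotated transcript, and which start site the cells use was not tested.

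The comparison of total mRNA asks how the mRNA level of each member differed between R98S and WT cells. Apart from Rab37, 13 of 42 tested members changed (31%) at an adjusted p under 0.1 (limma, Benjamini-Hochberg over all genes tested), 6 higher and 7 lower in R98S. Of all 11133 genes tested 30.3% changed, 14.5% higher and 15.8% lower, so the family's share was near that of all genes. The median size of the log2 difference was 0.19 over these members and 0.23 over all genes, and 21 of the 42 differences were positive. What the family shows is therefore at the level of single members, of which Rab19 and Rab32 rose most and Rab27b and Rab12 fell most. With the replicate number as a block 16 of the 42 were called, 8 higher and 8 lower, beside 38.4% of all genes, 18.5% higher and 19.9% lower. All 13 had clone means that did not overlap between the genotypes, as had 40.1% of all genes tested, called or not. The same libraries gave the calls, so this adds no support to them. In a fit on clone means Rab24, Rab29, Rab2b and Rab32 were not called (adjusted p 0.117, 0.128, 0.115 and 0.13), Rab14 was, and 28.1% of all genes were. Of the 13, Rab12, Rab19 and Rab2a were called whichever replicate number was left out, and each of the other 10 lost its call without at least 1 of the 3 numbers.

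**Figure D3:**
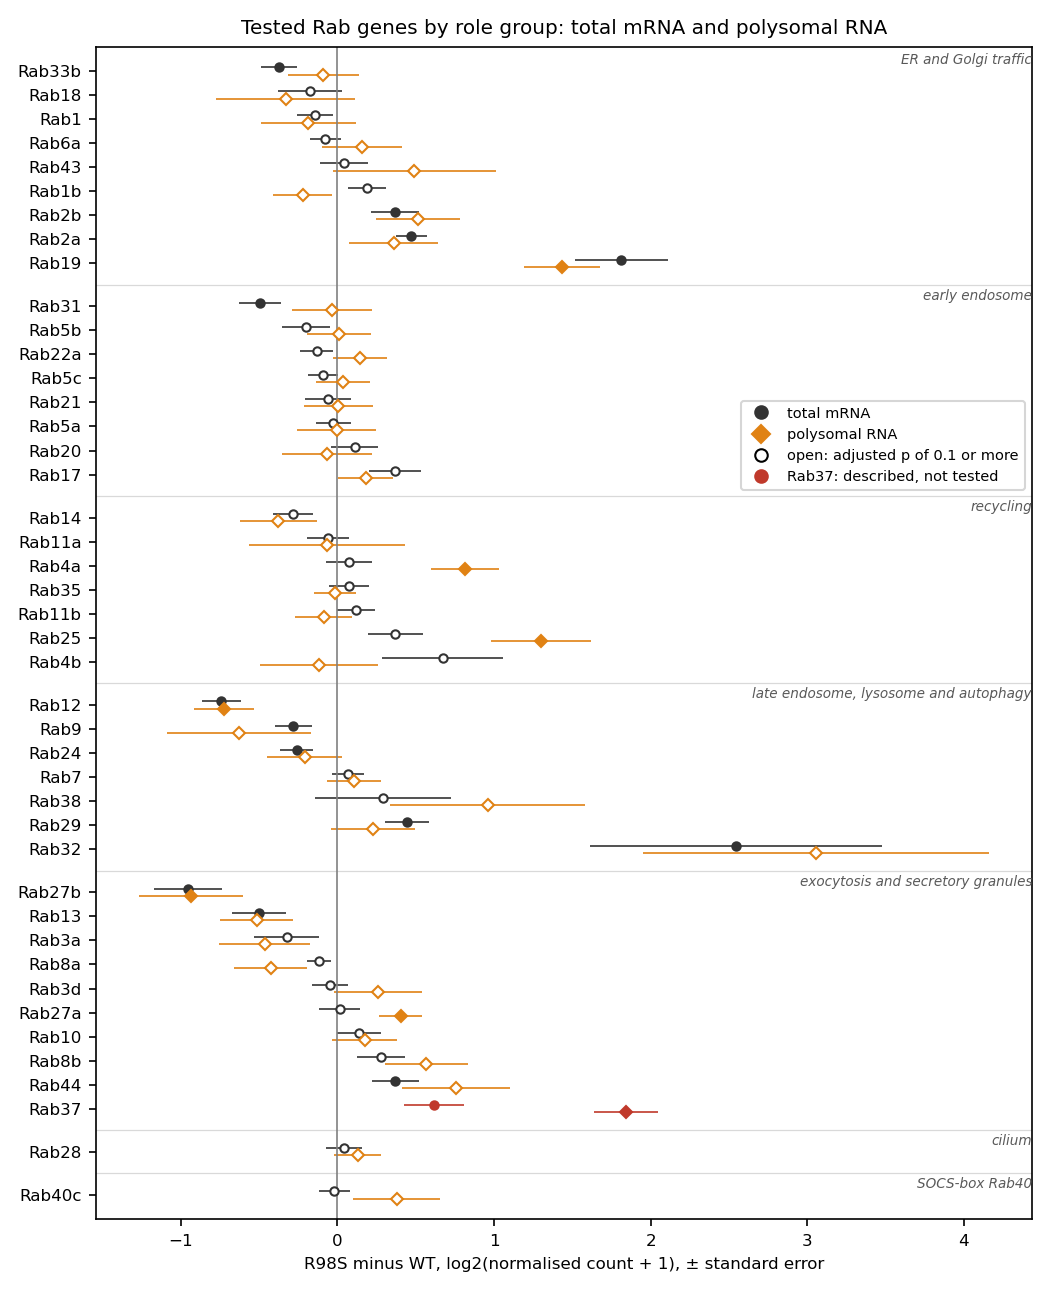
R98S minus WT of log2(normalized count + 1), with its standard error, for the 43 Rab genes tested in total mRNA, in total mRNA (circles) and polysomal RNA (diamonds), sorted within role groups. Filled markers have an adjusted p under 0.1 and Rab37, in red, is described and not tested. Rab19 stands to the right in both fractions at 1.81 and 1.44, and Rab12 to the left at -0.74 and -0.72.

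Among the members of ER and Golgi traffic, 3 of 9 tested rose and 1 fell in total mRNA, where 30.3% of all genes tested were called. Rab19, a Golgi-associated Rab, had total mRNA counts of 212 to 1197 with a median of 759.6 in the 9 R98S libraries and of 98.1 to 288 with a median of 159.9 in the 8 WT libraries. Only the lowest R98S library, of clone 13, fell within the WT range. Its log2 difference was 1.81 (SE 0.30, adjusted p = 0.000278). In polysomal RNA Rab19 counts were 235 to 683 with a median of 438 in R98S and 119 to 207 with a median of 156 in WT, and the genotypes did not overlap, as in 4.96% of all genes tested. The polysomal difference was 1.44 (SE 0.24, adjusted p = 0.000983), and leaving out any library or clone ended neither call of Rab19. Rab2a, which acts between the ER and the Golgi, had total mRNA counts of 1305 to 2079 with a median of 1744 in R98S and 1089.6 to 1459 with a median of 1214 in WT, and 7 of 9 R98S libraries exceeded every WT library. It rose by 0.47 on the log2 scale (SE 0.10, adjusted p = 0.00228). The polysomal difference of Rab2a was 0.36 with an adjusted p of 0.536, and 0.0306 when the replicate number was fitted as a block.

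Rab2b, a close relative of Rab2a, had total mRNA counts of 126 to 198 with a median of 148 in R98S and 64.7 to 164 with a median of 124 in WT, which overlap widely. Its difference of 0.37 (SE 0.16, adjusted p = 0.0969) was lost without any 1 of 12 libraries (R98S 11 numbers 1, 2 and 3, R98S 13 numbers 1 and 3, R98S 35 numbers 1 and 3, WT 28 numbers 1 and 3, WT 29 numbers 1 and 2, WT 36 number 2), with adjusted p from 0.102 to 0.17, and without WT 28 number 1 and WT 29 number 1 together (adjusted p = 0.236). Of the exon bases of Rab2b 64% lie opposite other genes, among them Tox4, and whether counting used strand is not given in the sources used here, so its count is uncertain. Rab33b, a Golgi Rab that binds an autophagy protein, had total mRNA counts of 139 to 209 with a median of 174 in R98S and 188 to 268 with a median of 232 in WT. It fell in R98S, and 5 of 9 R98S libraries were under every WT library, with a log2 difference of -0.37 (SE 0.11, adjusted p = 0.0257). Its polysomal difference was -0.09 (adjusted p = 0.888). Rab1b, the most abundant per kb of this group, had total mRNA means of 3465 ± 549 in R98S and 3057 ± 580.5 in WT (SD) and polysomal means of 3292 ± 619 and 3891 ± 979. Neither difference passed the test (adjusted p = 0.292 and 0.579), although without the label-conflicting libraries WT 28 number 1 and WT 29 number 1 the total mRNA adjusted p was 0.0827.

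In the early endosome group 1 of 8 tested members changed in total mRNA, beside 30.3% of all genes tested. Rab31, which carries cargo between the trans-Golgi network and endosomes, had counts of 1029.7 to 1698 with a median of 1115 in R98S and 1217 to 2548 with a median of 1679 in WT. In 6 of 9 R98S libraries it was under every WT library. It fell by 0.49 on the log2 scale (SE 0.13, adjusted p = 0.0119), and the call held without any single library or clone. In polysomal RNA the Rab31 means were 921 ± 288 and 923 ± 239 (SD), a difference of -0.04 with an interval of -0.58 to 0.51. No member of this group passed the test in polysomal RNA by limma (0 of 8, also 0 at an unadjusted p under 0.05 and 0 by edgeR and DESeq2). Rab5c, the most abundant of the group, had total mRNA means of 2918 ± 348 in R98S and 3124 ± 482 in WT, with a log2 difference of -0.09 (adjusted p = 0.531). Rab17 was called with the replicate block in total mRNA, at 0.38 (adjusted p = 0.0956), and not without it (adjusted p = 0.119). Rab5b and Rab22a were called as lower once the libraries WT 28 number 1 and WT 29 number 1 were left out, with adjusted p of 0.0527 and 0.082.

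In the recycling group calls were made in polysomal RNA, and the difference between the fractions is tested by the ratio further on. None of its 7 tested members passed in total mRNA by limma (1 at an unadjusted p under 0.05, and 0 by edgeR and DESeq2), and 2 of 7 rose in polysomal RNA, where 30.3% and 13.5% of all genes tested were called. Rab4a, which returns receptors quickly from early endosomes to the cell surface, had polysomal counts of 401 to 749.6 with a median of 626 in the 8 R98S libraries and 214 to 485 with a median of 338 in the 6 WT libraries. In 5 of 8 R98S libraries it exceeded every WT library, and the 3 libraries of clone 13 were the R98S libraries that did not. Its polysomal difference was 0.81 (SE 0.22, adjusted p = 0.0253), and the call was lost without clone R98S 11 or R98S 35 (adjusted p 0.11 to 0.187). In total mRNA the Rab4a means were 722 ± 167 and 674 ± 94.9 (SD), a difference of 0.07 with an interval of -0.23 to 0.38. Rab25, a relative of Rab11 known mainly from epithelia, had polysomal counts of 62.1 to 209.8 with a median of 87.8 in R98S and 24.9 to 68.1 with a median of 42.1 in WT, and 7 of 8 R98S libraries exceeded every WT library. It rose by 1.30 (SE 0.32, adjusted p = 0.0154), a call that was lost without clone WT 29 (adjusted p 0.112). The total mRNA difference of Rab25 was 0.37 (SE 0.18, adjusted p = 0.142). Rab35, the most abundant of the group per kb in total mRNA, had total mRNA means of 1374 ± 217 in R98S and 1312 ± 266 in WT, with a log2 difference of 0.08 (adjusted p = 0.709). Rab14, which links the Golgi and endosomes, had total mRNA means of 2321 ± 409 and 2839 ± 602, and it was called as lower with the replicate block (-0.26, adjusted p = 0.0333) and not without it (adjusted p = 0.122). Without WT 28 number 1 and WT 29 number 1 its adjusted p was 0.0542.

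Late endosome, lysosome and autophagy members changed in both directions, with 2 of 7 higher and 3 of 7 lower in total mRNA, beside 14.5% higher and 15.8% lower over all genes tested. Rab12, which directs recycling receptors to lysosomes, had total mRNA counts of 336 to 611 with a median of 486 in R98S and 620.0 to 1002 with a median of 736 in WT. All 9 R98S libraries were under every WT library, a separation that 3.53% of all genes tested also showed. It fell by 0.74 on the log2 scale (SE 0.13, adjusted p = 0.000398), and no single library or clone ended the call. Polysomal counts of Rab12 were 207 to 418 with a median of 349.7 in R98S and 404 to 588 with a median of 503 in WT, with 7 of 8 R98S libraries under every WT library. The polysomal difference of -0.72 (SE 0.19, adjusted p = 0.0253) was about that of total mRNA, and it was not called without clone R98S 13 or WT 29 (adjusted p 0.122 to 0.156) or in a fit on clone means (0.163). Rab9, which returns receptors from late endosomes to the Golgi, had total mRNA counts of 406 to 688 with a median of 529.7 and 457 to 701 with a median of 649 and a difference of -0.28 (SE 0.12, adjusted p = 0.0979). That call was lost without any 1 of 11 libraries (R98S 11 numbers 1 and 2, R98S 13 numbers 1 and 2, R98S 35 number 1, WT 28 numbers 2 and 3, WT 29 numbers 2 and 3, WT 36 numbers 2 and 3), with adjusted p from 0.105 to 0.175. In polysomal RNA Rab9 counts were 497 to 2086 with a median of 661 in R98S and 700.4 to 2824 with a median of 1563 in WT, with the high values in the libraries of replicate number 3 of both genotypes.

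Rab24, found on autophagosomes, had total mRNA counts of 609 to 895 with a median of 772 in R98S and 748 to 1133 with a median of 899.7 in WT. Its difference was -0.26 (SE 0.10, adjusted p = 0.0765), and 62.4% of its exon bases lie opposite Prelid1, so its count is uncertain in the same way as that of Rab2b. The call was lost without any 1 of 8 libraries (R98S 11 numbers 1 and 2, R98S 13 numbers 1 and 3, WT 28 numbers 2 and 3, WT 29 number 2, WT 36 number 2), with adjusted p from 0.112 to 0.147. Rab29, which recruits the kinase Lrrk2 to Golgi and lysosomal membranes, had total mRNA counts of 359 to 787 with a median of 427 in R98S and 274 to 402 with a median of 367 in WT. In 7 of 9 R98S libraries it exceeded every WT library, and it rose by 0.44 (SE 0.14, adjusted p = 0.0298), a call that ended without clone R98S 11 or WT 28 (adjusted p 0.139 to 0.204). Rab7, the central Rab of late endosomes and the most abundant of this group, had total mRNA means of 3819 ± 498 and 3651 ± 512 (SD) and a difference of 0.07 (adjusted p = 0.671).

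Rab32 and Rab38, a related pair that serves lysosome-related organelles, varied between clones of the same genotype. Rab32 had total mRNA counts of 56.6 to 295 with a median of 184 in the 9 R98S libraries and 0 to 129 with a median of 96.3 in the 8 WT libraries. The libraries labelled WT 28 numbers 2 and 3 held 0 reads of Rab32 in both fractions, and at this depth 0 reads allow a normalized count of up to 5.14 and 3.20 in total mRNA and 2.00 and 3.52 in polysomal RNA (3 reads a library, counting error only). The library labelled WT 28 number 1, which correlates with clone 36, had 123. The fitted log2 difference of 2.54 (SE 0.93, adjusted p = 0.0572) moved with those 2 libraries. Leaving out WT 28 number 2 or number 3 ended the call (adjusted p 0.103 to 0.11), while without the whole of clone WT 28 the total mRNA difference of Rab32 was 0.998 and the call was kept (adjusted p = 0.078). The call also ended without clone R98S 11 or R98S 35 (adjusted p 0.142 to 0.192). Against the other WT clones the means were 219, 137 and 201 in R98S clones 11, 13 and 35 and 89.6 and 106 in WT clones 29 and 36. In polysomal RNA Rab32 was called with the replicate block (adjusted p = 0.0528) and not without it (0.102).

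Total mRNA counts of Rab38 were 153 to 209 in the 3 libraries of R98S clone 35, 610.2 to 1350.4 in R98S clones 11 and 13, and 315 to 629 in WT. Clone 35 thus lay under every WT library and clones 11 and 13 mostly above them, and the genotype difference of 0.29 did not pass the test (SE 0.43, adjusted p = 0.67). The polysomal library labelled R98S 35 number 3 had 2579, near the 2515 of clone 11 and the 2911 of clone 13 in their number 3 libraries, where the other clone 35 polysomal libraries had 181 and 197. The polysomal difference of Rab38 was 0.96 (adjusted p = 0.427, and 0.058 with the replicate block), and 0.76 without that library (adjusted p = 0.546).

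**Figure D4:**
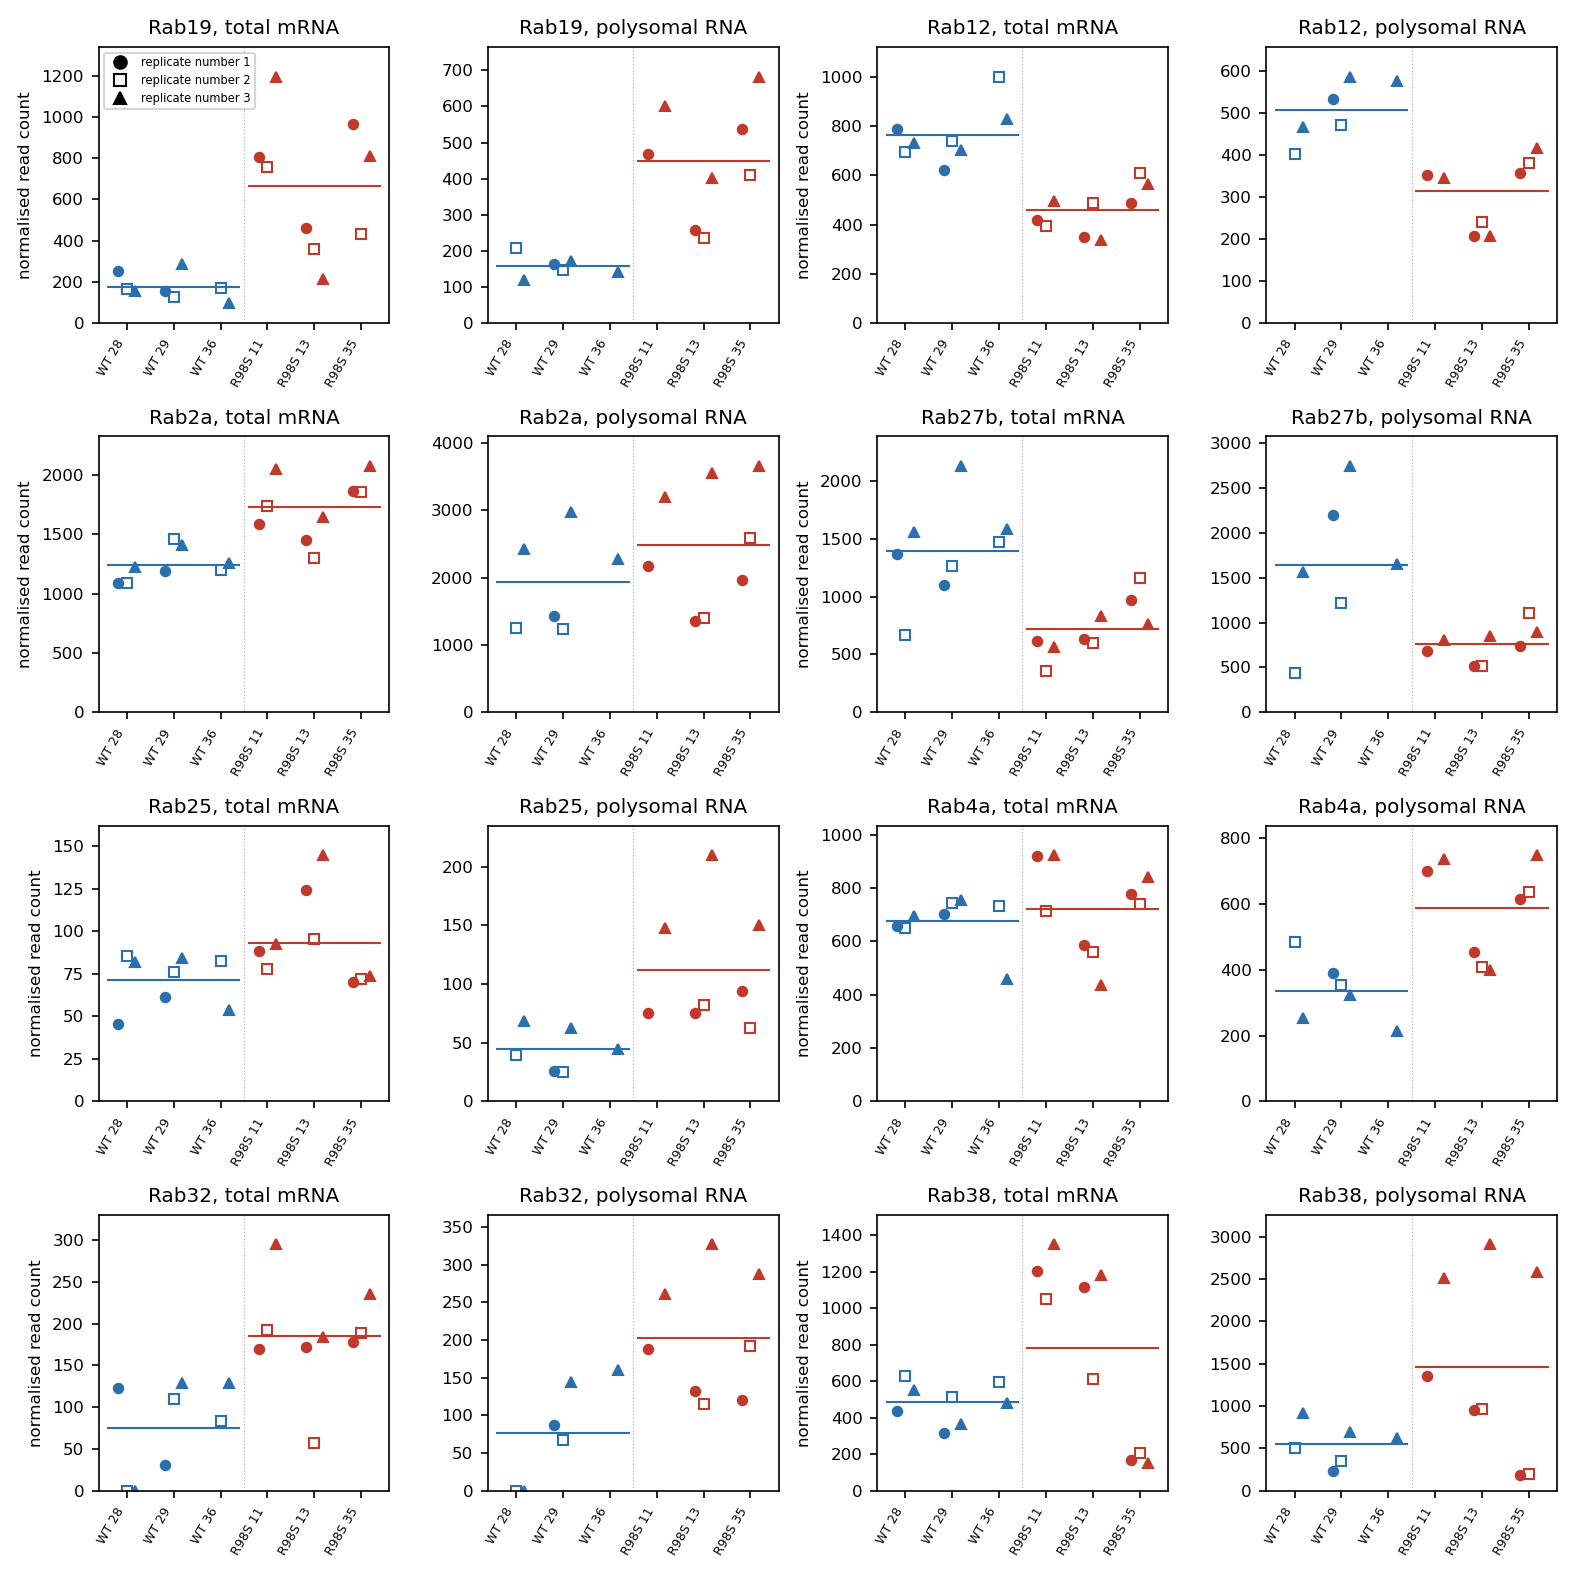
Normalized read count of 8 Rab genes in total mRNA and polysomal RNA of each library by clone, with marker shape for the replicate number and a line at each genotype mean. Rab32 is at 0 in WT clone 28 numbers 2 and 3, and Rab38 of R98S clone 35 is low except in the polysomal library labelled number 3.

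In the exocytosis and secretory granule group, leaving out Rab37, 1 of 9 tested members rose and 2 fell in total mRNA, beside 30.3% called over all genes tested. Rab27b, which docks granules at the plasma membrane, had total mRNA counts of 355 to 1157 with a median of 636 in R98S and 663 to 2131 with a median of 1418 in WT, and 5 of 9 R98S libraries were under every WT library. It fell by 0.95 on the log2 scale (SE 0.22, adjusted p = 0.00438) and the call held without any single library or clone. Polysomal counts of Rab27b were 519 to 1102 with a median of 774 in R98S and 438 to 2747 with a median of 1608 in WT, where the lowest value of all was in WT 28 number 2 and the R98S range lay within the WT range. The polysomal difference of -0.94 (SE 0.33, adjusted p = 0.0935) was lost without any 1 of 11 libraries (R98S 11 numbers 1 and 3, R98S 13 numbers 1 and 2, R98S 35 numbers 1 and 3, WT 28 number 3, WT 29 numbers 1, 2 and 3, WT 36 number 3), with adjusted p from 0.105 to 0.205. Rab27a, its close relative in secretory lysosome exocytosis, had polysomal counts of 939 to 1254 with a median of 1076 in R98S and 679.9 to 1141 with a median of 797 in WT, and 2 of 8 R98S libraries exceeded every WT library. It was higher by 0.40 (SE 0.14, adjusted p = 0.0858), a call lost without any 1 of 11 libraries (R98S 11 numbers 1 and 3, R98S 13 numbers 1 and 2, R98S 35 numbers 1 and 2, WT 28 number 3, WT 29 numbers 1, 2 and 3, WT 36 number 3), with adjusted p from 0.103 to 0.182. In total mRNA its difference was 0.02 with an interval of -0.26 to 0.29.

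Rab13, which acts in surface delivery and cell junctions, had total mRNA counts of 181 to 384 with a median of 251 in R98S and 207 to 485 with a median of 428 in WT. It fell by 0.50 on the log2 scale (SE 0.17, adjusted p = 0.0419), but 1 of 9 R98S libraries only was under every WT library, and the call ended without clone R98S 11, WT 28 or WT 29 (adjusted p 0.132 to 0.16). Rab44 had total mRNA counts of 10679 to 15154 with a median of 12307 in R98S and 6742 to 16293 with a median of 8958 in WT, so that no R98S library exceeded the highest WT library. Its difference of 0.37 (SE 0.15, adjusted p = 0.0814) was lost without any 1 of 12 libraries (R98S 11 numbers 1 and 2, R98S 13 numbers 1 and 2, R98S 35 numbers 2 and 3, WT 28 numbers 1 and 3, WT 29 numbers 1, 2 and 3, WT 36 number 3), with adjusted p from 0.105 to 0.148, and without WT 28 number 1 and WT 29 number 1 together (adjusted p = 0.202). The polysomal difference of Rab44 was 0.76 (adjusted p = 0.208, and 0.00773 with the replicate block). Rab8b was called as higher in total mRNA with the replicate block only (0.27, adjusted p = 0.0756, against 0.206 without it).

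Mast cells and basophils have large secretory granules, and of 8 genes of such cells 3 were tested in total mRNA and 2 passed, beside 30.3% of all genes tested. Cpa3 was higher in R98S by 3.20 on the log2 scale (adjusted p = 0.000811) and Cma1 by 2.42 (adjusted p = 0.051), while Ms4a2 differed by 0.48 (adjusted p = 0.561). The other 5 averaged under 10, and Kit, Fcer1a and Tpsb2 were at or near 0. The summed normalized counts of the 8 genes overlapped between the genotypes and were 518 to 58702 in R98S and 615 to 10205 in WT total mRNA, and 2452 to 24843 and 494 to 6617 in polysomal RNA. Single genes of other blood cells also moved in total mRNA. Hba-a1 of red cells was lower in R98S (-3.41, adjusted p = 0.000484). The other tested erythroid genes, Klf1 and Epor, did not pass (-0.67 and -0.12, adjusted p = 0.213 and 0.722). Cd3d of T cells was higher in R98S (1.85, adjusted p = 0.000221). Lyz2 of myeloid cells had means of 9.85 in R98S and 50.6 in WT and Cd3g of T cells 6.58 and 57.1, and both passed the filter only through the WT libraries, so no p is given. Mpo, the other myeloid gene with a mean of at least 10, had the opposite sign in total mRNA, with means of 46.4 and 28.2. Its difference of 0.29 did not pass (adjusted p = 0.881). Of the 13 genes of pro-B and interleukin 3 dependent cells, Csf2rb, a subunit of the interleukin 3 receptor, was higher by 1.20 (adjusted p = 1.78e-05), Csf2rb2 and Cd79b were also higher (1.20 and 0.87), Ptprc was lower (-0.48, adjusted p = 0.0646), and Il3ra and Cd79a did not pass. Their sum was 110180 to 222360 in R98S and 56843 to 102240 in WT total mRNA, without overlap. In polysomal RNA the sums of 44855 to 131010 in R98S and 23402 to 70390 in WT overlapped. Csf2rb and Csf2rb2 were the largest parts, with total mRNA means of 94858 and 70967 in R98S and 41121 and 30587 in WT. Summed over their lists, the 5 erythroid genes had 448 to 1418.5 in R98S and 698 to 2705 in WT total mRNA, the 6 neutrophil and macrophage genes 2.76 to 411 and 39.4 to 213, and the 6 T cell genes 36.5 to 102 and 13.4 to 211. The part of all these genes in the differences of the Rabs was not tested, and in bulk RNA fewer cells of a kind and less RNA per cell cannot be told apart.

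Polysomal RNA was tested over 14 libraries and total mRNA over 17, so the numbers of calls in the fractions are not compared. Apart from Rab37, 6 of 43 tested members passed (14%), where 13.5% of all 10707 genes tested did, 7.66% higher and 5.87% lower. The members called were Rab19, Rab25, Rab4a and Rab27a as higher and Rab12 and Rab27b as lower. Of these 6, 5 (all but Rab27b) had clone means that did not overlap, as had 27.2% of all genes tested, called or not. Here too the same libraries gave the calls. Rab19, Rab12 and Rab27b were called in both fractions with the same sign. By label the fractions come from the same cultures, so they are not separate evidence. With the replicate number as a block 15 members were called with Rab37 included, beside 30.9% of all genes, 15.2% higher and 15.7% lower. The members added were Rab29, Rab2a, Rab32, Rab38 and Rab44 as higher and Rab13, Rab8a and Rab9 as lower. The blocked differences of Rab29, Rab13, Rab8a and Rab9 were 0.32, -0.44, -0.34 and -0.40 (adjusted p = 0.0922, 0.0467, 0.0548 and 0.0206). Without the block their adjusted p was 0.723, 0.207, 0.31 and 0.499. Leaving out the library labelled R98S 35 number 3 ended the call of Rab27b (adjusted p = 0.105) and kept the other 5. In a fit on clone means, where 7.01% of all genes tested were called, Rab12, Rab27a, Rab27b and Rab4a were not called and Rab44 was, so that no member was called as lower. Without replicate number 1 the calls of Rab12, Rab27a, Rab27b and Rab4a were lost, and without number 3 those of Rab27a, Rab27b and Rab4a.

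The per-culture ratio asks whether a member's mRNA was more or less represented on polysomes, relative to its own mRNA level, in R98S than in WT cells. None of the 42 members other than Rab37 passed the test by limma, where 0.0376% of all 10627 genes did. Of the 42, 3 had an unadjusted p under 0.05, edgeR called 0, and DESeq2 called 1, Rab4a, beside 0.348% of all genes. With clone as a random effect Rab4a and Rab25 were called, at adjusted p of 0.0326 and 0.0876, where 0.753% of all genes were called. The median ratio difference of the 42 members was 0.01, as over all genes, and the median size was 0.19 against 0.21. For Rab4a the ratio was -0.45 to -0.12 with a median of -0.33 in the 8 R98S cultures and -1.45 to -0.43 with a median of -1.08 in the 6 WT cultures. Only the highest WT culture, WT 28 number 2, reached into the R98S range. The difference was 0.72 (SE 0.17, interval 0.36 to 1.08) with an adjusted p of 0.444, and of 0.0586 with the replicate block, where 0.47% of all genes were called, 0.386% higher and 0.0847% lower. Its clone means did not overlap, as in 17.1% of all genes tested, and were -0.36, -0.31 and -0.24 in R98S clones 11, 13 and 35 and -0.94, -1.05 and -1.10 in WT clones 28, 29 and 36. Within replicate numbers 1, 2 and 3 the Rab4a difference was 0.48, 0.41 and 1.05, where number 1 holds 1 WT culture.

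For Rab25 the ratio was -0.72 to 1.02 with a median of 0.10 in R98S and -1.57 to -0.25 with a median of -0.77 in WT, and 7 of 8 R98S cultures exceeded every WT culture. The difference of 0.96 (SE 0.32) had an adjusted p of 0.704, and of 0.0482 with the replicate block. Within replicate numbers it was 1.02, 1.13 and 1.06, again with 1 WT culture in number 1. Rab25 had mean total mRNA counts of 93.2 ± 25.6 and 71.4 ± 15.6 (SD). Without the cultures of the label-conflicting libraries WT 29 number 1 and R98S 35 number 3 the differences were 0.74 for Rab4a and 0.76 for Rab25 (adjusted p = 0.125 and 0.246), and Rab37 stood at 1.31.

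Rab19, Rab12 and Rab27b, called in both fractions, did not pass in the ratio. Rab19 had a ratio difference of -0.44 (interval -1.07 to 0.20), Rab12 of -0.08 (interval -0.44 to 0.27) and Rab27b of -0.13 (interval -0.61 to 0.34). In level, Rab44 had the lowest ratio of the abundant members in both genotypes, -2.17 ± 0.49 in R98S and -2.53 ± 0.75 in WT (SD), with a difference of 0.36 (interval -0.30 to 1.02). Rab11a, the main Rab of recycling endosomes, had 0.79 ± 0.67 and 0.80 ± 0.89, with a difference of -0.01 (interval -0.80 to 0.78). Its ratios were 1.31 to 1.74 in the cultures of replicate number 3 and -0.29 to 0.58 in those of numbers 1 and 2. The high mean of Rab11a thus came from number 3, in both genotypes.

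**Figure D5:**
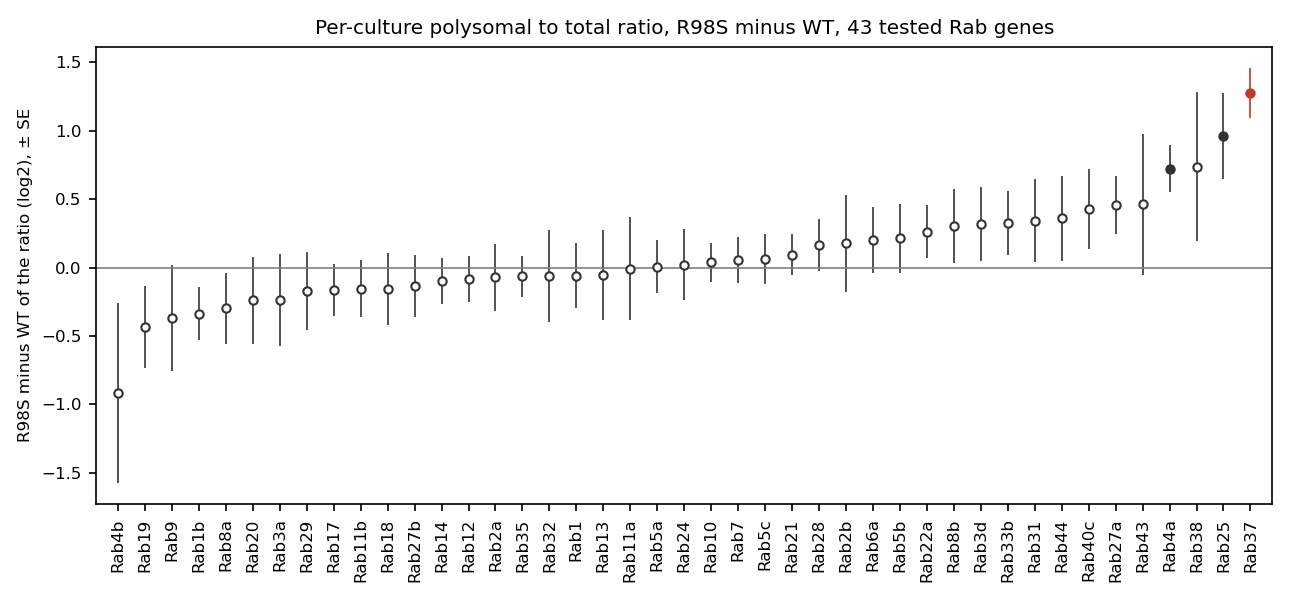
R98S minus WT of the per-culture log2 polysomal to total ratio, with its standard error, for the 43 tested Rab genes in order. Rab37, in red, was chosen with this value of 1.28 in view, and the filled points Rab4a at 0.72 and Rab25 at 0.96 are those called in the fit with the replicate block.

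Promoter sequence is shown for 4 members with large called differences, so that the letters before their starts can be compared. These are Rab19, Rab32 and Rab12, called in total mRNA, and Rab25, called in polysomal RNA only. Rab27b fell more than Rab12 in total mRNA and is not shown. Of 58 members 47 had a promoter sequence from RefSeq (GRCm38.p6). Each stretch ends just before the earliest annotated start, runs 5′ to 3′ on the strand of the gene, and has in capitals every match to 5 motifs searched on both strands over the 250 bases before the RefSeq start, namely the GC box spelled GGGCGG, the CAAT-type motif spelled CCAAT, the E-box spelled CACGTG, the STAT-type palindrome spelled TTCNNNGAA and the GATA-type motif spelled GATAA. No printed matches overlap:
Rab19 (chr6:39381103-39381174, plus strand): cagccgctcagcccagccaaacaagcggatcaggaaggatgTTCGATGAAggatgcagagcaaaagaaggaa
Rab32 (chr10:10558266-10558457, minus strand): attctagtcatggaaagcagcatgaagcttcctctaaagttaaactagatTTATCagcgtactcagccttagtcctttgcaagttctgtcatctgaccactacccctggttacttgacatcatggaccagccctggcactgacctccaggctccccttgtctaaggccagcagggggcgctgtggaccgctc
Rab12 (chr17:66519730-66519920, minus strand): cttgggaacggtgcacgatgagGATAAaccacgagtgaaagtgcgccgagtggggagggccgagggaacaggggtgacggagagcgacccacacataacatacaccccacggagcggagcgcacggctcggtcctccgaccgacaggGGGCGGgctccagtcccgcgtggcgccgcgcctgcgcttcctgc
Rab25 (chr3:88548301-88548529, minus strand): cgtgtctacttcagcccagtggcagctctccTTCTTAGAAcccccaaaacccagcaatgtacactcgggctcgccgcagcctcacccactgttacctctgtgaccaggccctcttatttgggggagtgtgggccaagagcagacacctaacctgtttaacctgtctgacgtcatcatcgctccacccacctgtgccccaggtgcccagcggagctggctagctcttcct

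Shares were counted over the full 250 bases of 59 Rab promoters and of 32851 promoters. The printed stretches are shorter, but no match in the 250 bases of these promoters lay outside them. Rab19 and Rab25 hold the letters TTCNNNGAA once in the printed stretch, and 8.47% of the Rab promoters and 7.02% of all hold them. Rab12 holds GGGCGG once, which 66.1% of the Rab promoters and 32.7% of all promoters hold. GATAA, present once in Rab12 and once in Rab32 on the opposite strand, was in 20.3% of the Rab promoters and 22.6% of all. For CCAAT the shares were 40.7% and 33.8% and for CACGTG 8.47% and 6.02%. A match is a description of the letters only.

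The machinery that works on Rab proteins was read from lists of genes. In total mRNA 3 of 11 tested genes of prenylation, escort and GDP dissociation inhibition were higher and 2 lower, 6 of 40 exchange factors were higher and 8 lower, 5 of 31 TBC-domain proteins were higher and 3 lower, and 10 of 50 effectors were higher and 12 lower. The shares called were 45.5%, 35%, 25.8% and 44% in that order, beside 30.3% of all genes tested. The genes named here had the smallest adjusted p of their lists. Rab3gap1, a subunit of the complex that acts on Rab3 and activates Rab18, had total mRNA means of 2970.4 ± 535 in R98S and 1306 ± 149 in WT (SD), a log2 difference of 1.17 (SE 0.11, adjusted p = 7.52e-07). Micall2, an effector of Rab13 and Rab8, fell by 1.73 (SE 0.19, adjusted p = 4.53e-06) from 1321 ± 247 in WT to 413 ± 130.4 in R98S. Rab11fip4, an effector of Rab11, was low, at 5.87 ± 3.81 in WT, with a log2 difference of 2.60 (SE 0.34). It passed the filter on low values only through the R98S libraries, where it is high, so its p is not given. Rab11fip2 rose by 0.98 and Rufy1, an effector of Rab4 and Rab14, by 0.55 (adjusted p = 0.00669 and 0.00607). The exchange factor Rgp1, of Rab6, rose by 0.73 and Rabgef1, of Rab5, fell by 0.54 (adjusted p = 2.32e-05 and 0.000971). Rabac1, which helps Rabs onto membranes, rose by 0.38 and Rabggtb, a subunit of the geranylgeranyl transferase for Rabs, fell by 0.32 (adjusted p = 0.0169 and 0.0386).

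In polysomal RNA 2 exchange factors were higher and 1 lower of 40, 1 TBC-domain protein was higher and 0 lower of 31, and 5 effectors were higher and 2 lower of 48. These are 7.5%, 3.23% and 14.6% of the lists, beside 13.5% of all genes tested. None of the 11 prenylation and escort genes passed by limma (3 at an unadjusted p under 0.05, 0 by edgeR and DESeq2). Rab3gap1 rose by 1.33 (adjusted p = 0.00905) and the TBC-domain protein Tbc1d10c by 0.70 (0.00342), while Micall2 fell by 1.48 (0.000661). In the ratio no gene of these 4 lists passed by limma. The counts at an unadjusted p under 0.05 were 1 of 11, 2 of 40, 1 of 31 and 4 of 48 in the order above, and edgeR and DESeq2 called 0 in each. With the replicate block 1 exchange factor, Rin3, was called.

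Other small GTPases gave a comparison outside the family. In total mRNA 3 of 26 Arf, Arl and Sar genes were higher and 5 lower, or 30.8% beside the 30.3% of all genes tested. None of the 5 tested Rab-like genes passed by limma (0 at an unadjusted p under 0.05, and 0 by edgeR and DESeq2). Arl8a, which moves lysosomes along microtubules, rose by 0.44 in total mRNA and 0.92 in polysomal RNA (adjusted p = 0.00637 and 0.00402). Arl3 fell by 0.82 in total mRNA and by 1.14 in polysomal RNA (adjusted p = 0.0107 and 0.0869). In polysomal RNA 1 of the 26 Arf, Arl and Sar genes was higher and 1 lower, or 7.69% beside 13.5% of all genes tested. The median size of the total mRNA difference was 0.26 over the Arf, Arl and Sar genes, against 0.19 over the Rab genes other than Rab37 and 0.23 over all genes.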

How the data were processed

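Ba/F3 clones expressing RPL10 WT or R98S were analysed from a total mRNA table and a polysomal RNA table. Groups, clones and replicate numbers came from the sample labels. The study's methods and the submitters' processing notes give a stranded poly(A) kit, removal of rRNA and tRNA reads with Bowtie2, alignment to mm10 with TopHat2 2.0.11, SAMtools, HTSeq and DESeq2. The annotation and the strand setting used for counting are not given in the sources used here. In each deposited table the authors give a gene-level signal, namely its reads scaled by a DESeq2 size factor for the library. Of the values 100% were whole multiples of a library's step (tolerance 0.01 read), which gave the reads. The tables were normalized separately, so a ratio has meaning only against other genes. A WT clone 36 total mRNA library with replicate number 1, left out by the study for its profile, was not analysed here.

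Values were transformed as log2(value + 1), so fold changes of low genes are understated. Fits took genes averaging at least 10, and limma 3.58.1 in R 4.3.3 (lmFit, eBayes with trend, two-sided) tested R98S against WT, with Benjamini-Hochberg adjustment over all genes. The main model held genotype only. Clone means, clone as a random effect and the replicate block were alternatives. An adjusted p under 0.1 is a call, and intervals cover 95% without adjustment. The ratio was fitted over 8 R98S and 6 WT cultures, paired by label. The self-test ran on simulated data. edgeR 4.0.16 and DESeq2 1.42.0 were alternatives on the recovered reads. Deviations of libraries with the same replicate number in R98S and WT correlated at 0.48 to 0.87 in each fraction and the ratio, so the numbers pair the libraries, and the blocked value is given where it changes a call. Positions, exon lengths and leaders came from GENCODE M21 (GRCm38), in which all 58 members matched, and promoters from RefSeq. Named genes were Rab37, all members called, the most abundant member per kb of each role group, and at most 4 genes of a list per comparison by adjusted p. The members, role groups and lists were chosen with earlier results of these data known. No protein sequence was used here, and some genes of the lists are not reported here. The closest libraries of 1 genotype, polysomal R98S 13 numbers 1 and 2, differed beyond sampling noise (chi-square 4.36 per gene) and were kept apart. The next pair, polysomal R98S 11 number 3 and the library labelled R98S 35 number 3, had 9.60. The closest total mRNA pair had 20.7. The libraries of both polysomal pairs were thus more alike than any total mRNA pair, and each was counted separately.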

Additional observations from a re-analysis of the deposited data

Results flagged for a closer look

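Each member's libraries were checked for a value far from the rest of its group, on the log2 scale, as the gap to the nearest library over the range of the group. Over 102 groups chance alone gives such a value in about 1 in 20. In total mRNA of WT, Rab2b was lowest in the library labelled WT 29 number 1, with a gap of 0.545 of the range, and Rab4a was lowest in WT 36 number 3, with 0.7. In total mRNA of R98S, Rab32 was lowest in the library labelled R98S 13 number 2, with 0.663. Polysomal Rab2b and Rab31 were both lowest in R98S 13 number 3, with 0.541 and 0.539 of the range of the R98S libraries. The libraries WT 29 number 1 and R98S 13 number 2 are among those that were not closest to their own clone. Rab37 differed between the fractions, since its R98S minus WT difference was larger by 1.277 on the log2 scale in polysomal RNA than in total mRNA over the matched cultures, which is the value that chose the gene and is given with no test.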

How the results depend on the processing

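Counts below are of all tested Rab genes including Rab37, which were 14 for total mRNA, 7 for polysomal RNA and 1 for the ratio. Each of these counts holds Rab37, which was chosen by these values and is no test (13, 6 and 0 without it). The 1 in the ratio is Rab37 alone, so counts in the ratio and its value against the median are descriptions and say nothing of stability. Pseudocounts of 0.5 and 10, TMM or quantile scaling, and a mean of at least 50 left 12 to 14, 6 to 8 and 1. The shares of all genes tested were 30.2% to 30.7%, 11.6% to 13.6% and 0.00941% to 0.0376%. In total mRNA an adjusted p under 0.05 left 9 (21.6% of all genes tested), a fit on clone means gave 11, of which 10 were among the 14 (28.1%), and fits within replicate numbers 1, 2 and 3 gave 7, 1 and 3 (13%, 1.98% and 9.54%). In polysomal RNA the replicate block gave 15 and, with a GC correction, 17 (30.9% and 36.9% of all genes tested). A fit on clone means gave 4, of which 3 were among the 7 (7.01%), and fits within numbers 2 and 3 gave 1 and 15 (2.91% and 20.9%). In the ratio the replicate block without and with GC correction and clone as a random effect gave 3 each (0.47%, 1.41% and 0.753% of all genes tested). DESeq2 gave 2 (0.348%), and clone means and the fit within number 2 gave 0 (0% and 0.0567%). The main fit called 0.0376% of all genes. The Rab37 ratio difference minus the median of the others was 0.757 within number 2. Polysomal Rab27b changed sign within number 2, at 0.053 (adjusted p = 0.98). The cause of these shifts was not tested, and the fits within a number hold fewer libraries.

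Leaving out a clone, a library and a replicate number in turn gave 6 to 14, 9 to 15 and 4 to 7 calls in total mRNA, 4 to 7, 5 to 8 and 3 to 7 in polysomal RNA and 0 to 1 each in the ratio. The shares of all genes tested moved too, at 16.9% to 27%, 25.3% to 34.8% and 11.9% to 23.6% in total mRNA and 7.6% to 12.7%, 10.6% to 15.7% and 5.6% to 19.3% in polysomal RNA. In the ratio they were 0% to 0.602%, 0% to 0.574% and 0% to 0.0283%. The low count of 9 in total mRNA came without WT 28 number 3, and the ratio count of 0 came without R98S 11, 13 or 35 number 1 or WT 28 number 3. The Rab37 value minus the median ranged from 1.18 to 1.35 without a clone, 1.05 to 1.42 without a culture and 0.976 to 1.51 without a number. Without the libraries whose clone genes go against their label, an alternative chosen after seeing the data, 16 members were called in total mRNA (39.3% of all genes tested). Rab2b and Rab44 were lost and Rab14, Rab1b, Rab22a and Rab5b added. In polysomal RNA 6 were called (12.5% of all genes tested) and in the ratio 1 (0.564%). Also leaving out R98S 13 and 35 number 2, which stand apart, gave 16 in total mRNA (43.8%) and 1 in the ratio (0.226%).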
